A study of Mus musculus with 241 samples.

Results

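The chemokine receptor genes Ccr9, Ccr7, Cxcr4 and Ccr4, linked to homing to and within the thymus, were followed through the earliest steps of T-cell development in the mouse. They were picked by gene symbol, and all 4 were found among the 24506 genes of the bulk table, the 27998 genes of each 10x matrix and the 43346 genes of the C1 table. Bulk RNA came from cells of C57BL/6 mice in which both Bcl11b alleles carry a YFP reporter (Bcl11byfp/yfp), a genotype that all bulk groups share. These cells were lineage-negative, viable, CD44+ and Kit+. Within that gate, CD25- early T-cell progenitors (ETPs) were sorted as Flt3+ ETP (2 libraries), Flt3- ETP (2 libraries) or undivided total ETP (2 libraries). CD25+ DN2a cells, the stage that follows, were sorted as YFP- (Bcl11b- DN2a, 3 libraries) or YFP+ (Bcl11b+ DN2a, 3 libraries). Single cells came from wild-type C57BL/6 thymus and the same Lin- 7AAD- CD44+ Kit+ gate with no CD25, Flt3 or reporter split, as 2 droplet libraries (10x Chromium v2) and as cells captured by Fluidigm C1, which count as 1 sample because no label ties them to animals. No cells were treated, and the labels used here give no ages and tie no library to a single mouse. Bulk p-values therefore measure the spread between libraries, which may be technical. The main 10x fits take the library as a term, so their p-values measure the spread left within the same 2 libraries. That spread may be technical too.

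Chemokine receptors are membrane proteins that couple to inhibitory G proteins and steer migrating cells along gradients of secreted chemokines. Ccr9 binds Ccl25, made by thymic epithelium, and Ccr7 binds Ccl19 and Ccl21. Both receptors are known for helping blood-borne progenitors enter the thymus. Cxcr4 binds Cxcl12 and is known for holding early thymocytes in the cortex and for supporting their survival at the pre-T-cell receptor checkpoint. Ccr4 binds Ccl17 and Ccl22 and is best known on thymocytes that have passed positive selection and on mature T cells.

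Sequence before the start site was looked up because Ccr9 and Cxcr4 ran in opposite directions across the sorted populations. RefSeq promoters on GRCm38.p6 matched 3 of the 4 members, Ccr9, Cxcr4 and Ccr4, in windows of 250 bases before to 50 bases after the start. The 250 bases before the start of Ccr9 (chr9:123766961-123767210, plus strand) and of Cxcr4 (chr1:128592300-128592549, minus strand) are shown 5′ to 3′ on the strand of the gene, with E-boxes in capitals.
Ccr9: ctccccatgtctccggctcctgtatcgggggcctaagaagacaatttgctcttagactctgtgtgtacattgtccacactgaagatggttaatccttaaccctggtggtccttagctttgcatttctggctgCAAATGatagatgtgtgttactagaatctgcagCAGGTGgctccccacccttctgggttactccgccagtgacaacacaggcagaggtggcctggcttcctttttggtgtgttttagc
Cxcr4: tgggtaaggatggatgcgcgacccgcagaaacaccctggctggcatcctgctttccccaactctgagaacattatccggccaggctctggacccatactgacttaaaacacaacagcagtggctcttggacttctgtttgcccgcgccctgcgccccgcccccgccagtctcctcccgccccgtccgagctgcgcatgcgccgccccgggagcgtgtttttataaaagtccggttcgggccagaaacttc

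The Ccr9 window of 300 bases held 2 E-boxes (CANNTG, the site bound by E proteins), whose first bases lie at -118 and -85 from the start, and 4 CG dinucleotides. The Cxcr4 window held no E-box and 20 CG dinucleotides. Ccr4 had E-boxes at -223 and -86 and 3 CG dinucleotides. Over all 32851 RefSeq promoters of the same length, 72.3% held an E-box and the median number of CG dinucleotides was 7. Fewer CG dinucleotides than in Cxcr4 were found in 73.5% of promoters, and fewer than in Ccr9 in 31.4%. Another 5 motifs were searched on both strands. The Runx motif TGTGGT was held by 16.8% of promoters. The Gata motif AGATAA was held by 11.2% and the Rbpj motif TGGGAA by 25.6%. The motif of Tcf and Lef factors, CTTTGA, was held by 16%, and the Ets motif GGAAGT by 23.8%. Ccr9 and Cxcr4 held none of these 5 motifs, and Ccr4 held CTTTGA at -30 and GGAAGT at -46.

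On mm10, the gene model of Ccr9 spans chr9:123767211-123783457 on the plus strand and is 4319 bases long when spliced. A transcript model on the minus strand, AC165425.1, shares 1932 exon bases with it. No strand setting is given in the sources used here, so reads of the pair cannot be told apart. The other models are Ccr7 at chr11:99144199-99155077 (1921 bases), Cxcr4 at chr1:128588199-128592299 (1810 bases) and Ccr4 at chr9:114490316-114496544 (2783 bases), all on the minus strand.

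Bulk depth was 21206647 to 38537043 recovered reads per library. Flt3 and Il2ra followed their gates: Flt3 stood at 61.9 to 78.5 FPKM in Flt3+ ETP and 19.3 to 24.9 FPKM in Flt3- ETP, and Il2ra stayed at or below 18.4 FPKM in ETPs and at or above 183.6 FPKM in DN2a cells. Replicate 1 of Flt3+ ETP and of Flt3- ETP carried Cd3e at 15.4 and 11.96 FPKM, against at most 1.61 FPKM in the other ETP libraries. Granulocyte markers (7 genes summed) reached 177.6 and 558.0 FPKM in Flt3- ETP and 61.4 to 70.8 FPKM in total ETP, against at most 5.08 FPKM elsewhere. The summed levels of the remaining marker lists ranged from 69.1 to 402.3 FPKM for T cells (7 of 9 genes in the table), 18.7 to 380.2 for dendritic cells, 10.7 to 45.4 for B cells, 77.2 to 707.6 for natural killer and innate lymphoid cells, 17.8 to 901.2 for mast cells and basophils, 13.9 to 294.6 for erythroid cells, 0.266 to 28.9 for stroma and epithelium (highest in replicate 1 of Flt3+ ETP, Flt3- ETP, Bcl11b- DN2a and Bcl11b+ DN2a, at 28.9, 23.4, 12.3 and 9.59), and 149.4 to 756.8 for the pro-T gate genes. Single genes made up most of several top sums, so these sums are not levels of cell types. Flt3- ETP replicate 2, highest for the natural killer and B-cell lists, had Nkg7 at 706.1, Ncr1 at 0.029 and Cd79b at 44.1 FPKM. Bcl11b+ DN2a replicate 3, highest for the mast cell, dendritic and T-cell lists, had Cpa3 at 893.4, Ly6d at 371 and Lck at 293 FPKM. Hbb-bs made up 291.3 FPKM of the top erythroid sum, in Bcl11b- DN2a replicate 1. Library kits differed within populations: replicate 2 of each Flt3-sorted ETP and replicate 3 of each DN2a population were SMART-Seq libraries, and the other 8 libraries were NEBNext. Within a population, Cxcr4 read lower and Ccr7 higher in the SMART-Seq library than in the NEBNext libraries, so the kit entered every fit.

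Among the bulk sorts, Ccr9 was higher in ETPs than in DN2a cells, and highest in the Flt3+ sort. It measured 11.9 and 15.5 FPKM (fragments scaled to gene model length and to library depth) in the Flt3+ ETP libraries, 6.63 and 3.78 FPKM in the undivided ETP sort and 2.81 and 2.70 FPKM in Flt3- ETP. In DN2a cells it measured 0.349, 0.175 and 0.063 FPKM in the Bcl11b- libraries and 0.423, 0.686 and 0.389 FPKM in the Bcl11b+ libraries. Every ETP library lay above every DN2a library, and the 3 ETP sorts did not overlap. Between the DN2a sorts, all 3 Bcl11b+ libraries lay above all 3 Bcl11b- libraries, from at most 67 reads in the Bcl11b- libraries and at least 75 reads in the Bcl11b+ libraries. In the limma test described below, this DN2a difference was not called (adjusted p = 0.669). The share of all genes whose libraries separate as fully was not counted, here or for the receptors that follow. Such orders are therefore descriptions only.

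**Figure D1:**
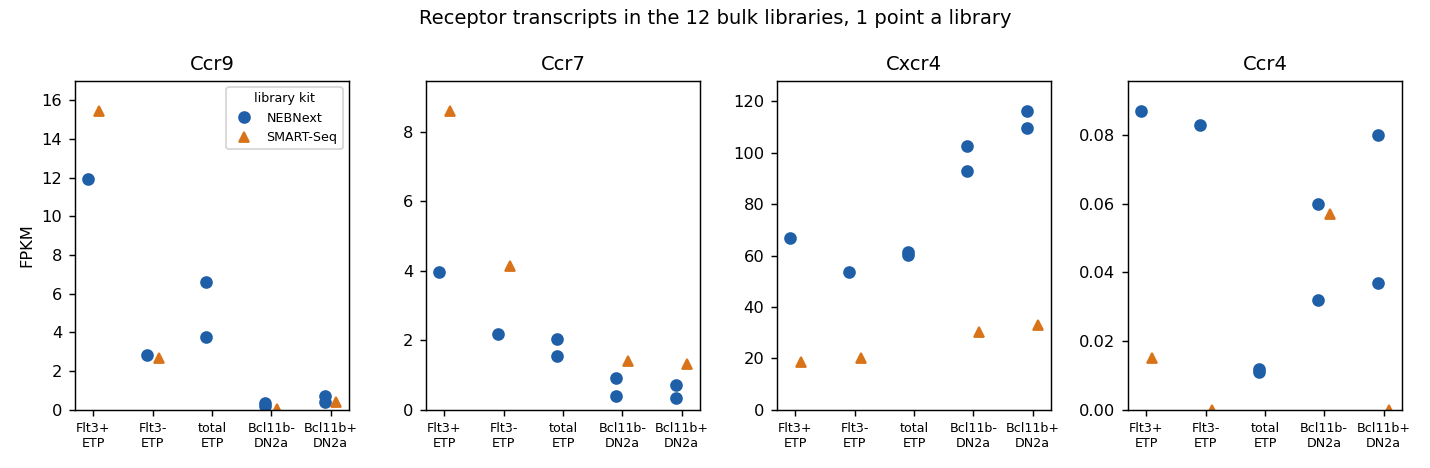
Level of each receptor gene (FPKM, linear axis from zero) in each of the 12 bulk libraries, by sorted population. Points are libraries, shaped by kit. Ccr9 falls from 11.9 to 15.5 FPKM in Flt3+ ETP to at most 0.686 FPKM in DN2a cells, while Cxcr4 stays above 18 FPKM everywhere.

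Ccr7 was lower than Ccr9 in the Flt3+ sort and followed a flatter slope. Its levels were 3.97 and 8.61 FPKM in Flt3+ ETP, 2.17 and 4.15 FPKM in Flt3- ETP and 1.56 and 2.04 FPKM in total ETP. The Bcl11b- DN2a libraries held 0.903, 0.393 and 1.4 FPKM and the Bcl11b+ DN2a libraries 0.709, 0.335 and 1.33 FPKM. All ETP libraries lay above all DN2a libraries, though only by a small margin between total ETP replicate 1 and the SMART-Seq library of Bcl11b- DN2a. Across kits Flt3+ and Flt3- ETP overlapped, and so did the DN2a sorts. Within each kit, the Flt3+ library lay above the Flt3- library. The Bcl11b+ library lay below the Bcl11b- library of the same library-number series in 3 of 3 pairs, by small amounts. In total ETP, which has NEBNext libraries only, the levels were below those in both Flt3 sorts, with no population pair of this kind tested here. Total ETP is not split by Flt3, yet its Ccr7 levels did not lie between those of the Flt3 sorts. Its libraries are of another library-number series than the NEBNext libraries of the Flt3 sorts. Population and series cannot be told apart in this order.

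Cxcr4 was the most abundant of the 4 members per length in every library. It measured 66.9 and 18.6 FPKM in Flt3+ ETP, 53.6 and 20.2 FPKM in Flt3- ETP and 61.4 and 60.3 FPKM in total ETP. Bcl11b- DN2a libraries held 102.6, 93.1 and 30.3 FPKM and Bcl11b+ DN2a libraries 109.8, 116.3 and 33.03 FPKM. Within NEBNext, each DN2a library lay above each ETP library, and the same held within SMART-Seq. Across kits the populations overlapped.

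Ccr4 was at the floor of the bulk data. Its values were 0.087 and 0.015 FPKM in Flt3+ ETP, 0.083 and 0 FPKM in Flt3- ETP, 0.011 and 0.012 FPKM in total ETP, 0.032, 0.060 and 0.057 FPKM in Bcl11b- DN2a and 0.080, 0.037 and 0 FPKM in Bcl11b+ DN2a. These rest on 57 reads over all 12 libraries, with at most 12 in a library, so Ccr4 did not pass the filter on low values (above 1 FPKM in at least 2 libraries) and was not tested. Of the 4 members, 3 passed, with more than 1 FPKM in 12 libraries for Cxcr4, 8 for Ccr7 and 6 for Ccr9.

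Changes between populations were tested with limma on log2(FPKM + 1), with population and kit in one fit of all 12 libraries and adjusted p-values over 12112 genes. Changes of low genes are understated on this scale. In bulk RNA, fewer cells that carry a transcript and less of it per cell cannot be told apart.

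From Flt3+ to Flt3- ETP, Ccr9 fell by 1.96 ± 0.245 (log2(FPKM + 1), ± SE here and below, n = 2 and 2 libraries, limma adjusted p = 0.00364). The call was 1 of 3 tested members, where 0.685% of all genes were called. Of those 83 genes, 51 were higher and 32 lower, and with quantile normalization 51 and 6 were. Without Flt3+ replicate 2 the adjusted p of Ccr9 was 0.0844, and without Flt3- replicate 1 it was 0.057. It was also above the threshold with a pseudocount of 0.1 (0.0564), with no kit term (0.069), within NEBNext (0.131) and with edgeR on recovered reads (0.0832). Ccr7 differed by -0.77 ± 0.219 (adjusted p = 0.152) and Cxcr4 by -0.10 ± 0.142 (adjusted p = 0.731), or by 0.06 with median-ratio scaling, which moved the median of all genes from -0.145 to -0.0143. The size of the Ccr9 fall was similar within each kit, from 11.9 to 2.81 FPKM with NEBNext and from 15.5 to 2.70 FPKM with SMART-Seq. The granulocyte gene Elane moved the other way, at 1.52 and 4.50 FPKM in Flt3+ ETP and 144.2 and 516.6 FPKM in Flt3- ETP. Its part in the Ccr9 result was not tested in bulk.

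From Flt3- ETP to Bcl11b- DN2a, all 3 tested members were called, against 3.97% of all genes. Ccr9 fell by 1.67 ± 0.226 (2 libraries against 3, adjusted p = 0.00197) and Ccr7 fell by 1.009 ± 0.202 (adjusted p = 0.017). Cxcr4 rose by 0.71 ± 0.131 (adjusted p = 0.0115). Without Flt3- replicate 1 the calls of Cxcr4 (adjusted p = 0.19) and Ccr7 (adjusted p = 0.157) were lost. The same held without Bcl11b- DN2a replicate 3 (0.0522 for Cxcr4 and 0.0706 for Ccr7), and for Ccr7 also without replicate 2 (0.0526). Ccr7 was not called within NEBNext (0.0784) or with no filter (0.0501), and with no kit term neither was called (1 for Cxcr4 and 0.769 for Ccr7).

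Against total ETP, the undivided sort, Bcl11b- DN2a showed the same directions. Ccr9 fell by 2.33 ± 0.23 (2 libraries against 3, adjusted p = 0.000273) and Ccr7 fell by 0.82 ± 0.206 (adjusted p = 0.0256). Cxcr4 rose by 0.67 ± 0.134 (adjusted p = 0.0107). These are 3 of 3 members, where 15.6% of all genes were called, 1184 higher and 711 lower (1380 and 1293 with quantile normalization). Both ETP references share the Bcl11b- DN2a libraries. Both total ETP libraries come from a single library-number series, which they share with Bcl11b- DN2a replicate 2 only. The Cxcr4 call was lost without total ETP replicate 1 (adjusted p = 0.0644), total ETP replicate 2 (0.13) or Bcl11b- DN2a replicate 1 (0.0643), and the Ccr7 call without total ETP replicate 1 (0.0754), total ETP replicate 2 (0.268) or Bcl11b- DN2a replicate 3 (0.0676). With no kit term neither was called (0.98 for Cxcr4 and 0.714 for Ccr7), and Ccr7 was not called within NEBNext (0.12) or with no filter (0.0625).

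Between the DN2a sorts, 0 of 3 members were called by limma, at an adjusted p or at an unadjusted p under 0.05, where 2.79% of all genes were (338 genes, and 682 with the library-number series as a block). The test by edgeR on recovered reads also called 0 of the 3. Ccr9 differed by 0.33 ± 0.2 (3 libraries against 3, adjusted p = 0.669), Ccr7 by -0.09 ± 0.179 (adjusted p = 0.999) and Cxcr4 by 0.18 ± 0.116 (adjusted p = 0.716). On recovered reads, with no pseudocount of 1 FPKM, the Ccr9 difference was 1.44 in log2 units (unadjusted p = 0.00624, adjusted p = 0.13). Beside it, Cd3e stood at 5.77, 0.275 and 0.824 FPKM in the Bcl11b- libraries and at 14.2, 7.30 and 13.3 FPKM in the Bcl11b+ libraries.

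Across the whole interval, from Flt3+ ETP to Bcl11b+ DN2a, all 3 tested members were called, against 11.3% of all genes (413 higher and 957 lower, or 816 and 836 with median-ratio scaling). Ccr9 fell by 3.29 ± 0.226 (2 libraries against 3, adjusted p = 4.93e-06) and Ccr7 fell by 1.87 ± 0.202 (adjusted p = 8.86e-05). Cxcr4 rose by 0.79 ± 0.131 (adjusted p = 0.00192). No omission of a single library ended any of these 3 calls. Without the kit term Cxcr4 was not called (adjusted p = 1).

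**Figure D2:**
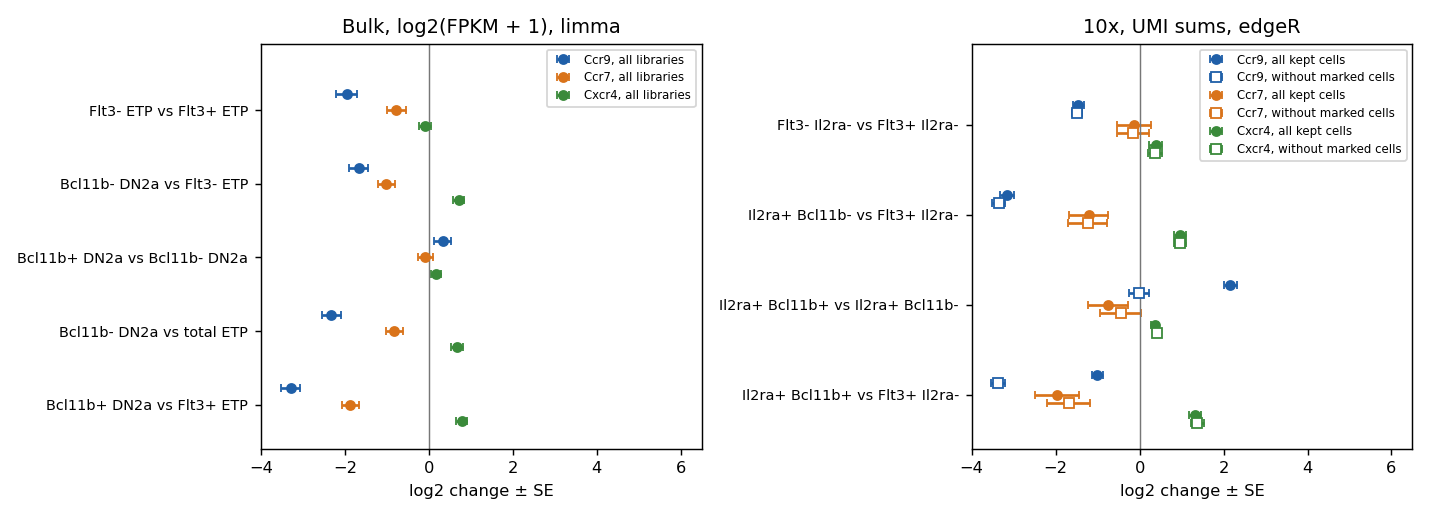
Change of Ccr9, Ccr7 and Cxcr4 in each bulk comparison (log2(FPKM + 1) scale, limma) and each 10x comparison (log2 of UMI sums, edgeR), with bars of 1 standard error. Filled points are fits of all libraries or all kept cells, whether called or not. Open squares in the 10x panel leave out granulocyte-marked and Cd3-marked cells. Ccr9 lies left of zero except in the Bcl11b+ against Bcl11b- comparisons, and Cxcr4 lies right of zero from Il2ra or CD25 onwards.

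The order of the levels in bulk was thus Flt3+ ETP, total ETP, Flt3- ETP and DN2a for Ccr9, in means of 13.7 ± 2.51, 5.20 ± 2.01 and 2.75 ± 0.0792 FPKM (SD, n = 2 each), then 0.499 ± 0.163 FPKM in Bcl11b+ and 0.196 ± 0.144 FPKM in Bcl11b- DN2a (n = 3 each). For Ccr7 the means were 6.29 ± 3.28, 3.16 ± 1.399 and 1.80 ± 0.338 FPKM in Flt3+, Flt3- and total ETP, then 0.899 ± 0.504 and 0.791 ± 0.502 FPKM in Bcl11b- and Bcl11b+ DN2a. Across kits Flt3+ and Flt3- ETP overlapped in this order, and the DN2a sorts overlapped too. These Ccr7 means and SDs pool the kits, except in total ETP, which has NEBNext libraries only. Within NEBNext, Ccr7 stood at 3.97 FPKM in Flt3+ ETP, 2.17 FPKM in Flt3- ETP and 1.56 and 2.04 FPKM in total ETP. Total ETP is of another library-number series than these Flt3-sorted libraries, which limits its place in each order. Cxcr4 is ordered within each kit, since the SMART-Seq library gave the lowest value in each population with both kits and total ETP has none. With NEBNext it stood at 53.6 FPKM in Flt3- ETP, 60.3 and 61.4 FPKM in total ETP, 66.9 FPKM in Flt3+ ETP, 93.1 and 102.6 FPKM in Bcl11b- DN2a and 109.8 and 116.3 FPKM in Bcl11b+ DN2a. With SMART-Seq the order of the ETP sorts was the other way round, at 18.6 FPKM in Flt3+ and 20.2 FPKM in Flt3- ETP, below 30.3 and 33.03 FPKM in Bcl11b- and Bcl11b+ DN2a.

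The 2 droplet libraries held 43734920 and 55522900 UMIs (unique molecular identifiers, each counting 1 captured RNA molecule) in 5006 and 8867 barcodes. At least 1000 genes and under 10% mitochondrial UMIs left 4878 and 8434 cells, with medians of 8488 and 6137 UMIs. The libraries shared 55 barcodes. Ccr9 had 502 and 904 UMIs in 325 and 616 cells, Cxcr4 had 925 and 971 UMIs in 799 and 882 cells, and Ccr7 had 47 and 89 UMIs. Ccr4 had 2 and 1 UMIs. After thinning each cell to 4000 UMIs, which leaves 4628 and 6978 cells, 3.41% and 4.20% of cells had a Ccr9 UMI, 7.58% and 6.35% a Cxcr4 UMI and 0.562% and 0.674% a Ccr7 UMI (unthinned 6.66% and 7.30%, 16.4% and 10.5%, and 0.964% and 1.008%). Among the granulocyte-marked cells, which should lack Ccr9, 0 of 21 and 0 of 19 thinned cells had a Ccr9 UMI. Counts of 0 in so few cells still allow shares of up to 14.3% and 15.8% (3 counts of the cells), with exact 95% upper bounds of 16.1% and 17.6%. Those cells had median depths of 16285 and 11056 UMIs before thinning. Intervals and such limits cover counting error only.

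Cells were placed in transcript classes by UMIs of Flt3, Il2ra (which encodes CD25) and Bcl11b alone, a stand-in for the bulk gates that does not use the receptors. A cell with no UMI of a gene may still express it, so the classes are mixtures. In CPM (UMI counts of a gene scaled to the same total in every class), Ccr9 stood at 23.01 (95% Poisson interval 18.8 to 27.9) and 41.7 (35.9 to 48.1) in Flt3+ Il2ra- cells of libraries 1 and 2. It was 9.003 (7.48 to 10.8) and 14.7 (13.05 to 16.5) in Flt3- Il2ra- cells, 2.36 (1.60 to 3.35) and 5.11 (4.01 to 6.42) in Il2ra+ Bcl11b- cells and 18.2 (15.7 to 20.9) and 16.9 (14.8 to 19.3) in Il2ra+ Bcl11b+ cells. In both libraries Ccr9 thus fell over the first 3 classes and was higher again in the fourth. Both bulk DN2a sorts stayed below 0.7 FPKM. FPKM is scaled to gene length and those sorts were reporter gates, so the levels do not compare directly with these CPM.

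Cxcr4 climbed through the same classes, at 10.5 and 10.3 CPM in Flt3+ Il2ra- cells, 14.8 and 12.8 CPM in Flt3- Il2ra- cells, 24.7 and 18.3 CPM in Il2ra+ Bcl11b- cells and 28.99 and 26.9 CPM in Il2ra+ Bcl11b+ cells. Ccr7 was sparse, at 1.12 and 3.36, 1.48 and 2.64, 1.07 and 0.967, and 0.636 and 0.602 CPM in the same order, from 5 to 52 UMIs per class and library. The 3 Ccr4 UMIs lay in cells marked by T-cell receptor complex genes, described below.

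Class differences were tested with edgeR's quasi-likelihood test on UMI sums per library and class, over 11760 genes and with the library as a term, so each p rests on 2 libraries. From Flt3+ Il2ra- to Flt3- Il2ra- cells, Ccr9 fell by 1.46 ± 0.132 (log2, SE, adjusted p = 3.89e-16). Cxcr4 (0.38 ± 0.161, adjusted p = 0.169) and Ccr7 (-0.13 ± 0.399, adjusted p = 0.91) did not pass, so 1 of 3 tested members was called, against 6.61% of all genes. Without the library term the Ccr9 fall of 1.45 was not called (adjusted p = 0.0989). It was 1.49 ± 0.123 (adjusted p = 1.27e-16) with granulocyte-marked and Cd3-marked cells left out.

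Against Flt3+ Il2ra- cells, Il2ra+ Bcl11b- cells had less Ccr9, which fell by 3.17 ± 0.169 (edgeR adjusted p = 4.27e-32), and Cxcr4 rose by 0.96 ± 0.151 (adjusted p = 1.39e-07). Ccr7 differed by -1.21 ± 0.468 (adjusted p = 0.0527), and by -1.24 (adjusted p = 0.0405) without the marked cells. With all cells it was -0.07 in library 1 alone and -1.80 in library 2 alone. This is 2 of 3 members, where 20.6% of all genes were called. Against the same reference, Il2ra+ Bcl11b+ cells had Cxcr4 higher by 1.32 ± 0.145 (adjusted p = 2.33e-13). Ccr9 fell by 1.006 ± 0.129 (adjusted p = 1.07e-10) and Ccr7 fell by 1.97 ± 0.526 (adjusted p = 0.00154). All 3 members were called, against 34% of all genes. Within library 1 alone the Ccr9 difference was -0.34 and the Ccr7 difference -0.81, and within library 2 alone -1.30 and -2.48.

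From Il2ra+ Bcl11b- to Il2ra+ Bcl11b+ cells, Ccr9 rose by 2.16 ± 0.157 (edgeR adjusted p = 6.47e-23) and Cxcr4 rose by 0.36 ± 0.0863 (adjusted p = 0.000654). Ccr7 differed by -0.75 ± 0.48 (adjusted p = 0.265). That makes 2 of 3 members, where 26.3% of all genes were called. DESeq2 (0.36, adjusted p = 0.16) and edgeR without the library term (0.34, adjusted p = 0.291) did not call the Cxcr4 rise, which was 0.23 in library 1 alone and 0.56 in library 2 alone. The Ccr9 rise rested on a minority of cells. Leaving out the Cd3-marked and granulocyte-marked cells turned it into a difference of -0.02 ± 0.237 (adjusted p = 0.973), and the same step deepened the Ccr9 fall from Flt3+ Il2ra- to Il2ra+ Bcl11b+ cells to 3.37 ± 0.173 (adjusted p = 3.14e-30). The Cxcr4 rise between these classes was 0.41 (adjusted p = 0.00023) without those cells.

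**Figure D3:**
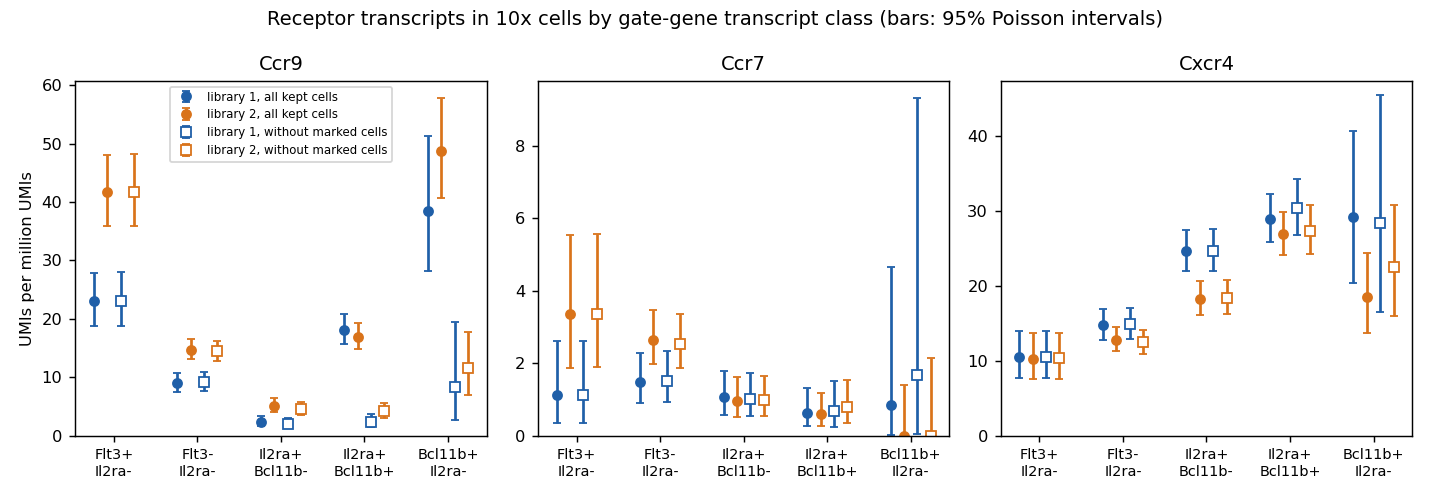
CPM of Ccr9, Cxcr4 and Ccr7 per transcript class and 10x library, with 95% Poisson intervals, for all kept cells and without granulocyte-marked and Cd3-marked cells. Ccr9 in Il2ra+ Bcl11b+ cells drops from 18.2 and 16.9 CPM to 2.42 and 4.21 CPM when the marked cells are left out, and Cxcr4 stays at 30.5 and 27.4 CPM.

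Cd3-marked cells were defined by at least 3 UMIs summed over Cd3d, Cd3e, Cd4, Cd8a and Cd8b1, which encode parts of the T-cell receptor complex and its coreceptors. They made up 9.51% and 10.5% of kept cells (464 and 885) but held 44.8% and 34.4% of all Ccr9 UMIs. Ccr9 stood at 72.6 and 69.7 CPM in them and at 6.94 and 11.9 CPM in unmarked cells. For Cxcr4, they held 8.11% and 9.89% of UMIs, with 24.2 and 21.5 CPM against 21.2 and 17.4 CPM. For Ccr7 they held 4.26% and 2.25% of UMIs.

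The Cd3-marked cells differed from the rest of the sort in the genes of its gate. Kit stood at 16.1 and 28.7 CPM in them, against 101.3 and 109.2 CPM in unmarked cells, and Cd44 at 9.04 and 8.30 CPM, against 60.1 and 62.8 CPM. Bcl11b stood at 623.7 and 628.9 CPM, against 76.1 and 87.5 CPM. Cd3g, which took no part in the marking, stood at 1761 and 1983 CPM, against 13.4 and 25.6 CPM. The coreceptor genes were nearly absent, with 1 and 0 UMIs of Cd4 and 2 and 1 UMIs of Cd8a. These cells were also shallower, with medians of 4851 and 3872 UMIs against 8673 and 6298 UMIs. No doublet caller was run here, so the part of doublets was not tested.

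Most Cd3-marked cells fell in the Il2ra+ Bcl11b+ class, 349 of its 1197 cells in library 1 and 584 of 1933 in library 2. Within that class, 85.4% and 79.4% of the cells with a Ccr9 UMI were Cd3-marked, against 22.7% and 25.5% of cells without one. Ccr9 stood there at 77.5 and 59.1 CPM in the marked cells and at 2.42 and 4.21 CPM in the unmarked ones. In the Flt3+ Il2ra- class, where Ccr9 was high as well, only 1 and 0 cells were Cd3-marked, and the level without marked cells was 23.1 and 41.8 CPM. The classes where Ccr9 was high thus differed in their share of Cd3-marked cells.

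Finer steps along Flt3, Il2ra and Bcl11b were taken in thinned cells as a description. Among cells with no Il2ra or Bcl11b UMI, 3.32% and 4.39% of those with no Flt3 UMI had a Ccr9 UMI, 8.59% and 13.5% of those with 1 Flt3 UMI, and 8.70% and 22.2% of those with 2, the last from only 23 and 36 cells. Along Il2ra, in cells with no Bcl11b UMI, the share of cells with Ccr9 went from 3.84% and 5.34% at 0 Il2ra UMIs to 0.616% and 1.85% at 1 UMI and to 0.324% and 0.244% at 3 or more. Cxcr4 ran the other way along Il2ra, from 5.84% and 5.18% at 0 UMIs to 11% and 9.02% at 3 or more. Along Bcl11b, in cells with Il2ra, Cxcr4 did not climb steadily, at 8.52% and 7.18% with 0 UMIs, 13.4% and 9.89% with 1, 12.6% and 10.3% with 2 and 7.84% and 7.93% with 3 or more. The intervals of the first and the last of these steps overlapped in each library. Along the same axis, Ccr9 rose from 0.553% and 1.18% at 0 UMIs to 10.3% and 7.24% at 3 or more. Cd3-marked cells rose with it, from 1.81% and 3.59% of cells to 44.6% and 32.1%.

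**Figure D4:**
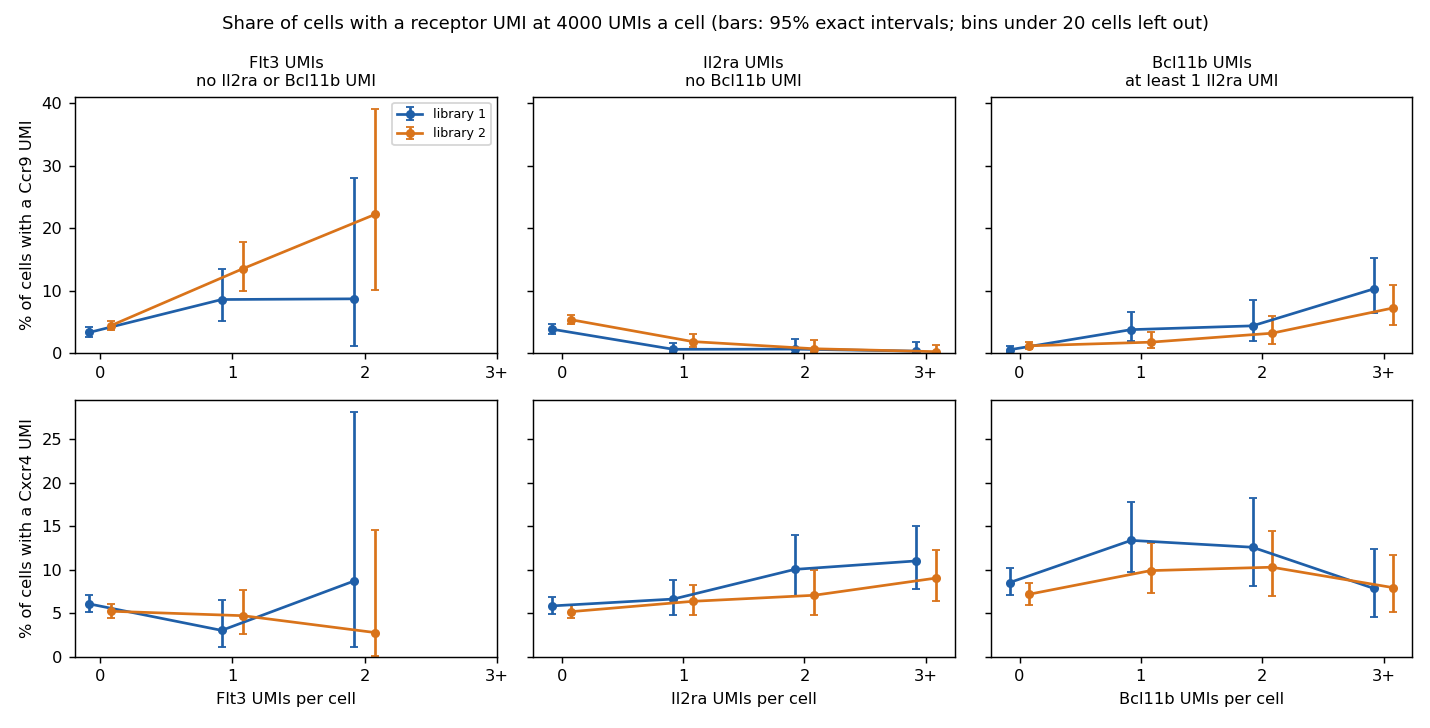
Percent of thinned cells (4000 UMIs each) with a UMI of Ccr9 or Cxcr4, against the number of Flt3, Il2ra or Bcl11b UMIs in the cell, with exact binomial 95% intervals, for both 10x libraries. Ccr9 rises with Flt3, falls with Il2ra to 0.324% and 0.244%, and rises with Bcl11b to 10.3% and 7.24%.

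Within a class, unmarked cells with and without a Ccr9 UMI were compared as a description, since cells of a library are not replicates. In Flt3+ Il2ra- cells, Tcf7, which encodes the T-cell factor TCF1, stood at 34.1 CPM (95% Poisson interval 21.6 to 51.2) in the 64 Ccr9-positive cells of library 1 and at 68 CPM (59.96 to 76.8) in the others. In library 2 the values were 27.4 CPM (17.5 to 40.7) and 62.1 CPM (54.2 to 70.8). The intervals of Flt3 itself overlapped there. In library 2 it stood at 172.2 CPM with Ccr9 and 164.9 CPM without, and in library 1 its intervals ran from 103.3 to 159.1 CPM with Ccr9 and up to 138.9 CPM without.

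Flt3- Il2ra- cells showed the same Tcf7 order, at 68.8 and 49.1 CPM with a Ccr9 UMI. Without one, Tcf7 stood at 128.9 CPM in library 1 and between 142.4 and 153.7 CPM (95% interval) in library 2. Gata3, another T-lineage regulator, stood at 19.8 and 22.97 CPM with Ccr9 and 38.8 and 40.98 CPM without, and Kit at 74.1 and 80.8 CPM against 98.2 and 109.2 CPM. Cd44 lay the other way, at 95.2 and 102.2 CPM against 78.4 and 75.3 CPM. For Cxcr4 the Tcf7 levels of this class were close, at 123.9 and 127.6 CPM with a Cxcr4 UMI and 125.7 and 142.8 CPM without.

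In Il2ra+ Bcl11b- cells, the few unmarked cells with Ccr9 (14 and 36) had Flt3 at 33.7 CPM (12.4 to 73.4) and 70.3 CPM (43.5 to 107.4), against 4.24 and 4.39 CPM in the others. Their Il2ra level was 179.8 and 240.9 CPM, against 332.1 and 367.7 CPM. In Il2ra+ Bcl11b+ cells that were not marked, those with Ccr9 (18 and 35 cells) still had more Cd3g, at 233.8 and 505.3 CPM against 41.1 and 73.1 CPM.

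**Figure D5:**
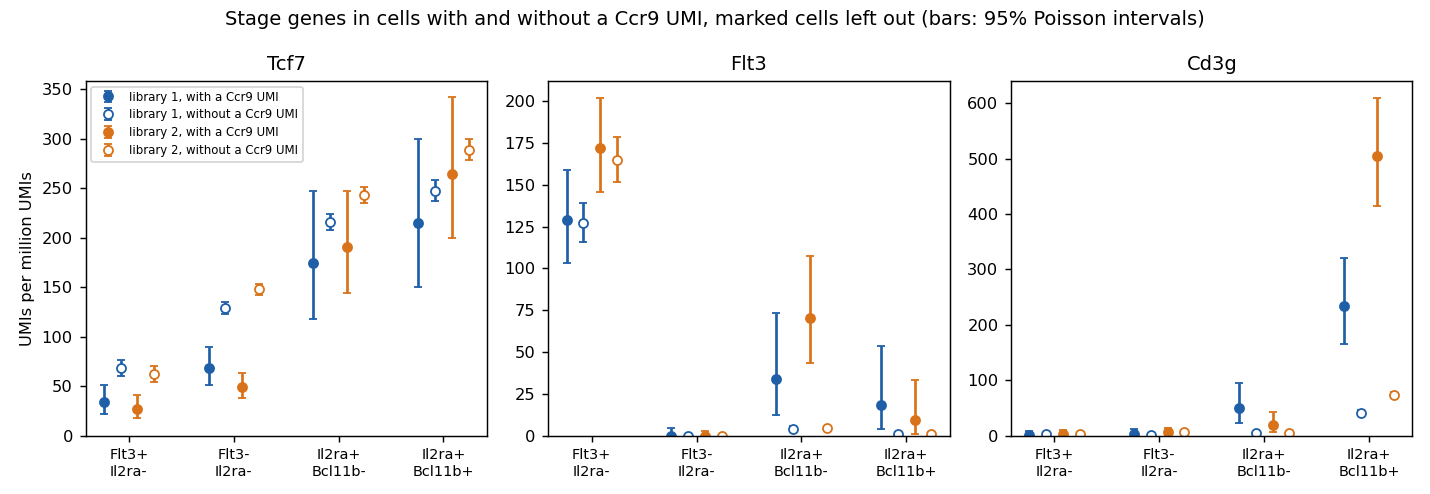
CPM of Tcf7, Flt3 and Cd3g in unmarked 10x cells with and without a Ccr9 UMI, by transcript class and library, with 95% Poisson intervals (counting error only). Tcf7 is lower in Ccr9-positive cells of both Il2ra- classes, at 34.1 and 27.4 CPM against 68 and 62.1 CPM in the Flt3+ class.

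Few cells held UMIs of both receptors of a pair, and the separate shares alone give few. In thinned cells, 0% (95% interval up to 2.31%) of cells with Ccr9 also had a Ccr7 UMI in library 1, and 4 of 293 cells (1.37%) in library 2. Of cells without Ccr9, 0.582% and 0.643% had one. The product of the separate shares gives 0.888 and 1.97 cells with Ccr9 and Ccr7, against 0 and 4 found. For Ccr9 and Cxcr4 it gives 11.98 and 18.6 cells, against 10 and 14 found. Cxcr4 was found in 6.33% and 4.78% of cells with Ccr9 and in 7.63% and 6.42% of cells without, shares whose binomial intervals overlap. At this depth, joint detection limits what can be said of cells that hold a pair of receptors.

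On the C1 chip, with a median of 4663 genes per cell, Cxcr4 was again the receptor found most often. Above 1 FPKM, Cxcr4 was found in 61.3% of cells (exact 95% interval 54.5 to 67.7), Ccr7 in 15 cells (6.76%, 3.83 to 10.9), Ccr9 in 11 cells (4.95%, 2.50 to 8.69) and Ccr4 in 0 cells, which allows a share of up to 1.35% (3 counts of the cells), with an exact 95% upper bound of 1.65%. The intervals of Ccr7 and Ccr9 overlapped. As 1 sample, the chip cells were not tested. Their names carry 19 library numbers of 10 to 13 cells each, over which the share with Cxcr4 ran from 25% to 90.9% and the median number of genes per cell from 3340 to 5667. The pooled intervals cover counting error only and not this spread, whose part in the shares was not tested. Of the 11 cells with Ccr9, 8 were among the 65 Flt3+ Il2ra- cells (12.3%, 5.47 to 22.8). Another 2 were among 94 Il2ra+ Bcl11b- cells and 1 among 29 Il2ra+ Bcl11b+ cells. The 33 Flt3- Il2ra- cells held 0, which allows a share of up to 9.09% (3 counts of the cells), with an exact 95% upper bound of 10.6%. Flt3 was above 1 FPKM in 9 of the 11 cells with Ccr9 (81.8%, 48.2 to 97.7) and in 33.2% (26.9 to 39.97) of cells without it.

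Cxcr4 on the chip was detected in 37 of 65 Flt3+ Il2ra-, 19 of 33 Flt3- Il2ra-, 56 of 94 Il2ra+ Bcl11b- and 23 of 29 Il2ra+ Bcl11b+ cells. The last share was 79.3% (60.3 to 92.01). Its interval overlapped those of the other classes, at 44.04 to 69.15%, 39.2 to 74.5% and 48.95 to 69.6% in the same order, so the classes are not ranked. Ccr7 was detected in 7 of 65, 2 of 33, 4 of 94 and 2 of 29 cells of these classes. Detected levels had medians of 24.2 FPKM for Ccr9 (1.46 to 147.2), 30.8 FPKM for Ccr7 (4.74 to 51.0) and 11.97 FPKM for Cxcr4 (1.22 to 75.1). Cd3e was above 1 FPKM in 0 chip cells, and Cd3g in 5 cells, none of them with Ccr9.

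Across the 12 bulk libraries with the kit effect removed, the profile of Ccr9 had a Pearson r of 0.937 with Ccr7, and that of Cxcr4 had r of -0.809 with Ccr9 and -0.834 with Ccr7. The libraries share populations and kits, so these are descriptions. Among well-expressed genes (mean log2 of 3 or more), the profiles most like Ccr9 were those of Usp18 (r = 0.976) and Ly6a (0.961), both interferon-responsive, the cytokine receptor gene Il17ra (0.958), Coro7 (0.956) and Sh2d5 (0.953). Most like Ccr7 were Itgb2, which encodes the common chain of leukocyte integrins (0.972), Irf7 (0.953), Aldh7a1 (0.953), Coro7 (0.950) and Ifi27l2a (0.949). Cxcr4 ran closest to Epb41l4b (0.990), Psmc1 (0.990), Gata3 (0.988), Chdh (0.981) and Rab27a (0.978).

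Other chemokine receptors were mostly too low to test in bulk, where 4 of 20 passed the filter. None of the 4 was called higher in any bulk comparison. From Flt3- ETP to Bcl11b- DN2a, 2 of the 4 fell, namely Cxcr3, the receptor of interferon-induced chemokines (by 1.42, adjusted p = 0.01), and Ccr2 (by 0.84, adjusted p = 0.0341). From Flt3+ ETP to Bcl11b+ DN2a, 3 fell, Cxcr3 by 1.64, Ccrl2 by 1.49 and Ccr2 by 1.43. Of all genes, 3.97% and 11.3% were called in these comparisons. The list's medians in these comparisons were -0.66 and -1.46, against 0.12 and -0.03 over all genes tested. Against total ETP 1 of 4 fell, Ccr2 (by 1.00), and between the DN2a sorts 1 fell, Ccrl2 (by 0.87), against 15.6% and 2.79% of all genes. In 10x sums 6 of 20 were tested. Against Flt3+ Il2ra- cells, 0 of them rose and 3 fell in Il2ra+ Bcl11b- cells, among them Ccr2 (by 1.15), and 0 rose and 5 fell in Il2ra+ Bcl11b+ cells, Ccr2 by 2.69. Of all genes, 20.6% and 34% were called there. Without the marked cells 2 and 4 fell.

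Genes of the receptors' ligands ranged from not seen to a few FPKM. Ccl19 was listed at 0 in every bulk library and Ccl21a did not exceed 0.026 FPKM. Ccl25 lay between 0.606 and 4.15 FPKM, a range within that of Ccr7, and was called in no bulk comparison. Cxcl12 and Ccl17 reached 1.56 and 2.05 FPKM, and Ccl22 reached 1.04 FPKM. Cxcl12 stood at 1.17, 1.56, 0.493 and 0.448 FPKM in replicate 1 of Flt3+ ETP, Flt3- ETP, Bcl11b- DN2a and Bcl11b+ DN2a. Elsewhere it stood at 0.083 FPKM or less. In the same libraries Col1a2, a gene of the stroma list, stood at 24.7, 20.4, 10.2 and 6.66 FPKM, against at most 0.005 FPKM elsewhere. The part of stromal RNA in the Cxcl12 levels was not tested. Of 4 tested ligand genes, Ccl17 fell from Flt3+ ETP to Bcl11b+ DN2a (by 1.03, limma adjusted p = 0.0281), a call that edgeR on recovered reads did not make. It measured 2.05 and 0.524 FPKM in Flt3+ ETP and 0.44, 0 and 0 FPKM in Bcl11b+ DN2a. The stromal gene Col1a2 was high in the same libraries, at 24.7 and 0 FPKM in Flt3+ ETP and 6.66, 0 and 0 FPKM in Bcl11b+ DN2a, and its part in the Ccl17 result was not tested. This is 1 of 4 genes, where 11.3% of all genes were called.

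Among 22 tested genes of receptor signalling, the regulators of G-protein signalling led the calls. Rgs1 fell by 1.88 from Flt3- ETP to Bcl11b- DN2a (limma adjusted p = 0.00177), by 2.31 against total ETP (adjusted p = 0.000481) and by 2.27 from Flt3+ ETP to Bcl11b+ DN2a (adjusted p = 0.000107). Counts in these comparisons were 0 higher and 3 lower, 2 and 6, and 2 and 8, of 22, where 3.97%, 15.6% and 11.3% of all genes were called, with medians of 0.01, 0.01 and -0.48 against 0.12, -0.00321 and -0.03 over all genes. Rgs10 and Rgs2 were the other genes called in the first, by falls of 0.96 and 0.58. Between the DN2a sorts Rgs3 fell by 0.91 and Rgs2 by 0.52, which is 2 of 22 against 2.79% of all genes. In 10x sums Rgs1 fell by 1.397 from Flt3+ Il2ra- to Il2ra+ Bcl11b- cells and by a further 1.44 to Il2ra+ Bcl11b+ cells (1.31 without marked cells).

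Adhesion genes used in homing split. Itga4, the alpha chain of the VLA-4 integrin, rose by 1.71 (limma adjusted p = 0.0122) from Flt3- ETP to Bcl11b- DN2a while Itgb2 fell by 1.014 (adjusted p = 0.00387), the 2 of 9 genes called there, against 3.97% of all genes. From Flt3+ ETP to Bcl11b+ DN2a 2 of 9 rose and 4 fell, among them Cd44 (by 1.67), the hyaluronan receptor of the gate, and Itgb2 (by 1.61), against 11.3% of all genes. Against total ETP 2 of 9 fell, Cd44 (by 1.43) and Itgb2 (by 0.67), a share near the 15.6% of all genes. Between the DN2a sorts Itgb7 alone fell (by 0.72), against 2.79% of all genes. In 10x sums Itga4 was higher by 0.68 in Flt3- Il2ra- and by 1.47 in Il2ra+ Bcl11b- than in Flt3+ Il2ra- cells, and Cd44 fell by 0.34 and 1.02. Those counts were 1 higher and 1 lower, and 1 higher and 2 lower, of 9, where 6.61% and 20.6% of all genes were called.

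Of the 7 regulators of homing genes, Tcf12, which encodes an E protein, rose in bulk from Flt3- ETP to Bcl11b- DN2a (by 0.83, limma adjusted p = 0.0273) and again to Bcl11b+ DN2a (by 0.85, adjusted p = 0.0157). Each time it was the only one of the 7 called, against 3.97% and 2.79% of all genes. Against total ETP the only call was Tcf3 (1.02, adjusted p = 0.00697), and 1 of 7 is near the 15.6% of all genes called there. From Flt3+ ETP to Bcl11b+ DN2a, Tcf12 rose by 1.34, while Foxo1 and S1pr1, a transcription factor and the sphingosine phosphate receptor of T-cell egress, fell by 0.83 and 0.85, which makes 3 of 7 called against 11.3% of all genes. In 10x sums Tcf12 rose by 0.53 and 1.02 over the last steps (0.48 and 0.73 without marked cells) and Klf2, an activator of S1pr1, fell by 1.02 from Flt3+ Il2ra- to Il2ra+ Bcl11b- cells. From Flt3+ Il2ra- to Il2ra+ Bcl11b- cells 4 of the 7 rose and 2 fell, and from there to Il2ra+ Bcl11b+ cells 4 rose and 1 fell, against 20.6% and 26.3% of all genes. Without the marked cells, 3 rose and 2 fell in the former and 3 rose and 1 fell in the latter. In Flt3- against Flt3+ ETP, limma called 0 genes of these 5 lists in bulk. At an unadjusted p under 0.05 there were 2 receptor signalling genes, 3 adhesion genes and 2 regulators, and edgeR on recovered reads called 0.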

How the data were processed

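Members, gene lists and comparisons were chosen with earlier results of these data known. The comparison of Il2ra+ Bcl11b+ with Flt3+ Il2ra- cells was added after the data were seen. Bulk libraries and chip cells come as FPKM tables that the authors deposited. Per the submitters' processing notes, HOMER, STAR 2.4.0, RSEM 1.2.25, SAMtools, edgeR 3.6.8 and mm10 were used for these libraries, and Cell Ranger 2.0 for the 10x UMI counts that the authors deposited. In HOMER's table FPKM is scaled per kilobase of the listed gene model, per the file headers.

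Bulk values were tested with limma 3.58.1 (R 4.3.3, variance trend) on log2(FPKM + 1) with population and kit as terms, over the 12112 of 24506 genes above 1 FPKM in at least 2 of the 12 libraries. Calls were made at a Benjamini-Hochberg adjusted p under 0.05. Whole reads were recovered from FPKM and gene length within 0.1 read for 90.3% to 97.9% of values (26.3% to 29.7% with a wrong step), and tested with edgeR 4.0.16 as an alternative. UMI counts were summed per library and class and tested with edgeR's quasi-likelihood test, with DESeq2 1.42.0 as an alternative. Shares were thinned to 4000 UMIs (seed 1) and carry exact binomial (Clopper-Pearson) 95% intervals, and no doublet caller was run. The other alternatives covered scaling, pseudocount, filters, kit, replicate block, marked cells and single libraries. For Bcl11b+ and Bcl11b- DN2a, deviations of libraries from the same series of library numbers correlated by 0.561, 0.823 and 0.508 with the kit removed, so the series pairs these samples.

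Beyond the members, up to 4 called genes per list and comparison were named by smallest adjusted p, and 5 genes per member by highest correlation. Text gives part of these. On simulated data the bulk fit recovered 60.6% of 2-fold and 100% of 4-fold changes for Bcl11b+ against Bcl11b- DN2a (11779 genes), and the 10x fit 41% of 1.5-fold and 100% of 3-fold changes for Il2ra+ Bcl11b- against Flt3+ Il2ra- cells (9128 genes). The simulated counts had a fixed spread and no kit or library effect, and came only from genes above a floor of mean counts. Ccr7 in 10x sums and Ccr4 lay below that floor, so these rates do not give the power for each receptor. Tables were handled with Python 3.11.15, numpy 2.4.6, pandas 2.3.3, scipy 1.17.1 and matplotlib 3.10.9.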

Additional observations from a re-analysis of the deposited data

Results flagged for a closer look

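Cells with a Bcl11b UMI and no Il2ra UMI (3.14% and 5.86% of kept cells in libraries 1 and 2) belonged to no class that was compared. Ccr9 stood in them at 38.4 CPM in library 1 and 48.7 CPM in library 2, above every compared class of the same library (at most 23.01 and 41.7 CPM). Cd3-marked cells were 56.9% and 43.1% of these cells, and without marked cells Ccr9 was 8.36 and 11.6 CPM. Cxcr4 stood at 29.2 and 18.5 CPM in the same cells. These values were singled out because they lie in data outside the comparisons.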

How the results depend on the processing

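Under other settings, 13 recomputed bulk member tests lost the call, 1 gained it and 2 reversed, and the others kept direction and call. Reversals were Cxcr4 in Flt3- against Flt3+ ETP with median-ratio scaling (0.0621) and with edgeR on recovered reads (0.02669), neither called. In that comparison Ccr9 lost its call with a pseudocount of 0.1 (-2.26), no kit term (-1.957), NEBNext only (-1.761) and edgeR (-2.22). From Flt3- ETP to Bcl11b- DN2a, calls were lost for Cxcr4 with no kit term (0.9841) and for Ccr7 with no filter (-1.009), no kit term (-1.124) and NEBNext only (-0.9608). From total ETP, they were lost for Cxcr4 with no kit term (0.1217) and for Ccr7 with no filter (-0.8205), no kit term (-0.5898) and NEBNext only (-0.7764). From Flt3+ ETP to Bcl11b+ DN2a, Cxcr4 lost its call with no kit term (1.064). The causes were not tested.

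Numbers of genes called moved by over 1.5 times in 21 of 45 bulk counts, given here as percent of genes tested. With no kit term they were 0.0826% (Flt3+ to Flt3- ETP), 0.289% (Flt3- ETP to Bcl11b- DN2a), 0.033% (between the DN2a sorts), 0.454% (total ETP to Bcl11b- DN2a) and 1.87% (Flt3+ ETP to Bcl11b+ DN2a), and in this order 0.0252%, 8.69%, 0.361%, 2.8% and 4.5% within NEBNext. Fits of the compared populations only gave 6.56%, 1.47% and 7.51% for the first, the third and the fifth. No filter gave 0.981% and 4.04% for the third and the fourth, and for the first a pseudocount of 0.1 gave 0.421% and edgeR 0.229%.

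With the library-number series as a replicate block, 4.85%, 7.74%, 5.63% and 7.76% of genes were called in the first 4 comparisons, and Ccr7 was called in Flt3- against Flt3+ ETP (-0.7749, adjusted p = 0.0428). The block changed no other member call. Between each Flt3-sorted ETP population and its DN2a or ETP partner the series gives only 2 pairs, which also differ in kit. Their deviations correlated by 0.854 to 0.916 as deposited and by -0.711 to 0.187 with the kit removed. Removing the kit there also removes the series, so pairing cannot be told apart from the kit. Both total ETP libraries belong to 1 series with a single Bcl11b- DN2a library, so no pairs exist in that comparison. In the 10x fit, no replicate block (no library term) cost the calls of Ccr9 in Flt3- against Flt3+ Il2ra- cells (-1.452) and of Cxcr4 in Il2ra+ Bcl11b+ against Il2ra+ Bcl11b- cells (0.3423), and gave calls for 0.264%, 7.3%, 8.26% and 18.9% of genes in the 4 comparisons.

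Leaving out single libraries gave ranges of -0.2801 to 0.08175 (Cxcr4), -0.9397 to -0.6101 (Ccr7) and -2.211 to -1.704 (Ccr9) for Flt3- against Flt3+ ETP, with 0.116% to 13.3% of genes called. For Bcl11b- DN2a against Flt3- ETP they were 0.5153 to 0.8772, -1.143 to -0.9182 and -1.748 to -1.561 (1.35% to 21.1% of genes). For Bcl11b+ against Bcl11b- DN2a they were 0.1394 to 0.2231, -0.1946 to 0.05834 and 0.2368 to 0.4167 (1.33% to 2.11%). For Bcl11b- DN2a against total ETP they were 0.6269 to 0.7126, -0.9862 to -0.697 and -2.664 to -1.99 (1.71% to 23.9%). For Bcl11b+ DN2a against Flt3+ ETP they were 0.7025 to 0.8881, -2.047 to -1.717 and -3.567 to -3.059 (5.76% to 10.6%). The libraries whose omission moved a count most were Flt3- ETP replicate 2 (13.3% and 21.1%), Flt3+ ETP replicate 2 (0.116%), Flt3- ETP replicate 1 (1.35%), total ETP replicate 2 (1.71%) and Bcl11b- DN2a replicate 2 (23.9%). Where an omission left a sort with 1 library, that library was assumed to vary like the other sorts.

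In 10x data 54 of 59 member tests kept direction and call. Without marked cells, Ccr7 was called in Il2ra+ Bcl11b- against Flt3+ Il2ra- cells (-1.24) and Ccr9 in Il2ra+ Bcl11b+ against Il2ra+ Bcl11b- cells reversed (-0.01787). DESeq2 did not call Cxcr4 there (0.3631). DESeq2 called 2.29%, 10.9%, 11% and 21.3% of genes, and with classes made after thinning 2.59% and 15.4% were called for the first and the third comparison. With 1 library at a time, Cxcr4, Ccr9 and Ccr7 ranged from 0.3157 to 0.4916, -1.503 to -1.353 and -0.3502 to 0.4023 in the first comparison, 0.8298 to 1.234, -3.284 to -3.026 and -1.796 to -0.06609 in the second, 0.2317 to 0.5564, 1.727 to 2.944 and -0.7458 to -0.685 in the third, and 1.386 to 1.465, -1.299 to -0.34 and -2.481 to -0.8119 in the comparison of Il2ra+ Bcl11b+ with Flt3+ Il2ra- cells.

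Shares of cells moved with depth by construction. In library 1, Ccr9 was in 6.663% of cells unthinned, 2.85% at 2000 UMIs, 0.8427% at 2 UMIs or more and 2.462% without marked cells; Ccr7 in 0.9635%, 0.205% and 0% under the first 3, and Cxcr4 in 16.38%, 3.793% and 0.5402%. Ccr4 was in 0% under the last 3. In library 2, Ccr9 was in 7.304% unthinned, 1.132% at 2 UMIs or more and 3.691% without marked cells. Under the first 3 settings Ccr7 was in 1.008%, 0.3205% and 0%, and Cxcr4 in 10.46%, 3.335% and 0.3153%. On the chip, Cxcr4 was above 5 FPKM in 47.75% of cells. Ccr4 rests on 57 reads in all bulk libraries and 3 UMIs in 10x data, and Ccr7 on 47 and 89 UMIs, which limits what differences could be detected.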
